A study of Homo sapiens with 12 samples.

Results

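Oxidative phosphorylation couples electron transfer along the inner mitochondrial membrane to ATP synthesis. Complexes I and II pass electrons from NADH and succinate to ubiquinone, complex III passes them on to cytochrome c, complex IV (cytochrome c oxidase) reduces oxygen, and complex V (ATP synthase) uses the proton gradient that complexes I, III and IV build. Its subunits come from 2 genomes: 13 are encoded by mitochondrial DNA, which is transcribed as long polycistronic RNAs that are cut into single messages, and the others are nuclear genes whose proteins are imported. Complex IV is a copper enzyme. MT-CO1 holds a copper ion beside its heme at the site of oxygen reduction, and MT-CO2 holds the copper centre that receives electrons from cytochrome c.

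Structural subunit genes were taken by symbol: names beginning with the NDUFA, NDUFB, NDUFC, NDUFS or NDUFV stems and a number, the 4 succinate dehydrogenase genes, names beginning with UQCR, CYC1, cytochrome oxidase subunits 4 to 8 with a letter, names beginning with ATP5, and the 13 mitochondrial protein genes. This gave 101 of the 20332 genes in the table, 88 nuclear and 13 mitochondrial. Of the nuclear genes, 37 fell to complex I, 4 to complex II, 10 to complex III, 17 to complex IV and 20 to complex V. The mitochondrial genes held 7 subunits of complex I, 1 of complex III, 3 of complex IV and 2 of complex V. NDUFA4, a subunit of complex IV despite its name, and its paralog NDUFA4L2 were counted with complex IV. The pattern of the symbols does not catch COX4I1, COX4I2, NDUFAB1 or CYCS, which are described with the related genes further on.

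The cells were KLE and Ishikawa, established lines from human endometrial cancers, grown in the same medium. KLE cells given 200 µM CuCl2 for 24 h, untreated KLE cells, Ishikawa cells given 200 µM CuCl2 for 24 h and untreated Ishikawa cells made the 4 groups (the labels also call the untreated cells vehicle controls), with 3 libraries each that the labels call independent biological replicates. Messages were selected with oligo(dT), and every group was cultured without any genetic change named in the labels. Each line stands for 1 tumour of origin, and 1 dose and 1 time were measured, so no dose or time course can be read.

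Library totals ran between 14050275 and 25057003 counts. Epithelial markers (PAX8, EPCAM, CDH1 and 3 keratins) summed to between 2473 and 5921 TPM, and endothelial markers to at most 3.56 TPM. The 4 leukocyte markers summed to 28.1 to 35.9 TPM in KLE CuCl2 libraries, against 18.9 to 22.2 TPM in untreated KLE libraries, and to 8.49 to 11.5 TPM in Ishikawa CuCl2 libraries, against 6.71 to 7.90 TPM in untreated Ishikawa libraries. Neither line's groups overlapped; CD68, a lysosomal protein of macrophages that other cells also make, carried most of the sum, and PTPRC, which defines leukocytes, had at most 21 counts in any library. CD68 rose by 0.74 ± 0.10 in KLE cells and 0.80 ± 0.18 in Ishikawa cells (SE; edgeR adjusted p = 1.6e-07 and 0.00095), and PTPRC was called higher in Ishikawa cells (1.48; edgeR adjusted p = 0.0095) and not tested in KLE cells. The 6 stromal markers summed to 14.9 to 31.5 TPM in KLE CuCl2 libraries, against 22.9 to 50.8 TPM in untreated KLE libraries, and to 16.3 to 37.7 TPM in Ishikawa CuCl2 libraries, against 6.82 to 30.1 TPM in untreated Ishikawa libraries, with overlap in both lines. With CuCl2, 3 of the 6 epithelial markers were called higher and 1 lower in KLE cells, and 0 higher and 5 lower in Ishikawa cells. Of all genes tested, 25.6% were called higher and 25.2% lower in KLE cells, and 33.8% and 35.3% in Ishikawa cells. The library Ishikawa untreated 2 stood apart. It was the deepest, and its counts differed from the other Ishikawa untreated libraries by 8.45 and 12.9 times the sampling noise (chi-square per degree of freedom), against 2.05 to 3.95 for all other pairs of replicates. The fibroblast gene DCN had between 67 and 364 counts in the other 11 libraries of both lines and 0 counts in Ishikawa untreated 2, and LUM had 18 to 107 counts and 0. The part of these in the results was not tested, and calls described below that change without Ishikawa untreated 2 are named.

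In KLE cells all 13 mitochondrial transcripts had lower fitted values after CuCl2, and 8 passed the test: MT-CO1, MT-CO3, MT-ND4, MT-ND5, MT-ND6, MT-CYB, MT-ATP6 and MT-ATP8. The nuclear genes for the same complexes moved little in KLE cells, with a median log2 fold change of 0.02. In Ishikawa cells MT-ND1, MT-ND2 and MT-CYB rose, MT-CO1 fell and the other 9 did not pass the test. MT-CO1 was lower with CuCl2 in both lines.

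The share of all counts that the 13 genes took was 4.05, 4.72 and 4.47% in the KLE CuCl2 libraries, against 6.82, 5.99 and 5.91% in untreated KLE libraries. These groups did not overlap. In Ishikawa cells the share was 6.40, 6.20 and 6.26% with CuCl2, against 7.21, 6.16 and 7.16% in untreated libraries, where the lowest value belonged to Ishikawa untreated 2 and the groups overlapped. The 88 nuclear genes took 0.655 ± 0.0075% of counts in KLE CuCl2 cells and 0.664 ± 0.019% in untreated KLE cells (SD, n = 3 each). In Ishikawa cells they took 0.709, 0.647 and 0.692% with CuCl2, against 0.718, 0.726 and 0.732% untreated, so every treated library lay below every untreated one. Summed TPM, which is per transcript length, of the mitochondrial genes over that of the nuclear genes was 5.69, 6.70 and 6.23 in KLE CuCl2 libraries, against 9.35, 7.88 and 8.27 in untreated KLE libraries. The same ratio was 8.40, 9.02 and 8.48 in Ishikawa CuCl2 libraries, against 9.18, 7.81 and 9.02 in untreated Ishikawa libraries. A lower share in bulk RNA cannot tell less mitochondrial RNA per cell apart from more of the other RNA or a changed mix of cells. Capture of these messages by oligo(dT) was not tested.

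Calls were made with edgeR's quasi-likelihood test at a Benjamini-Hochberg adjusted p below 0.05 over all genes tested. In KLE cells 50.8% of the 13031 genes tested were called, 25.6% higher and 25.2% lower. Of the 13 mitochondrial genes 8 were called lower and 0 higher, with a median log2 fold change of -0.38; at an unadjusted p below 0.05 the number higher was also 0, as it was with DESeq2 and limma. In Ishikawa cells 69.1% of 13359 genes were called, 33.8% higher and 35.3% lower. There 3 mitochondrial genes were called higher and 1 lower, with a median of 0.18. The interaction, KLE response minus Ishikawa response, was fitted over all 12 libraries and called 45.4% of 13663 genes, 24.6% higher and 20.8% lower. In it all 13 mitochondrial genes had a negative value, 6 of them called (MT-ND1, MT-ND2, MT-CYB, MT-CO1, MT-CO3 and MT-ATP6), with a median of -0.50. Without Ishikawa untreated 2 the number called lower in Ishikawa cells was 4, with MT-ND5, MT-ND6 and MT-CO2 added, and the median was 0.06. The median difference in response then shrank to -0.37. The difference of MT-ATP8 shrank from -0.97 to -0.63, and was then called too (edgeR adjusted p = 0.032).

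**Figure D1:**
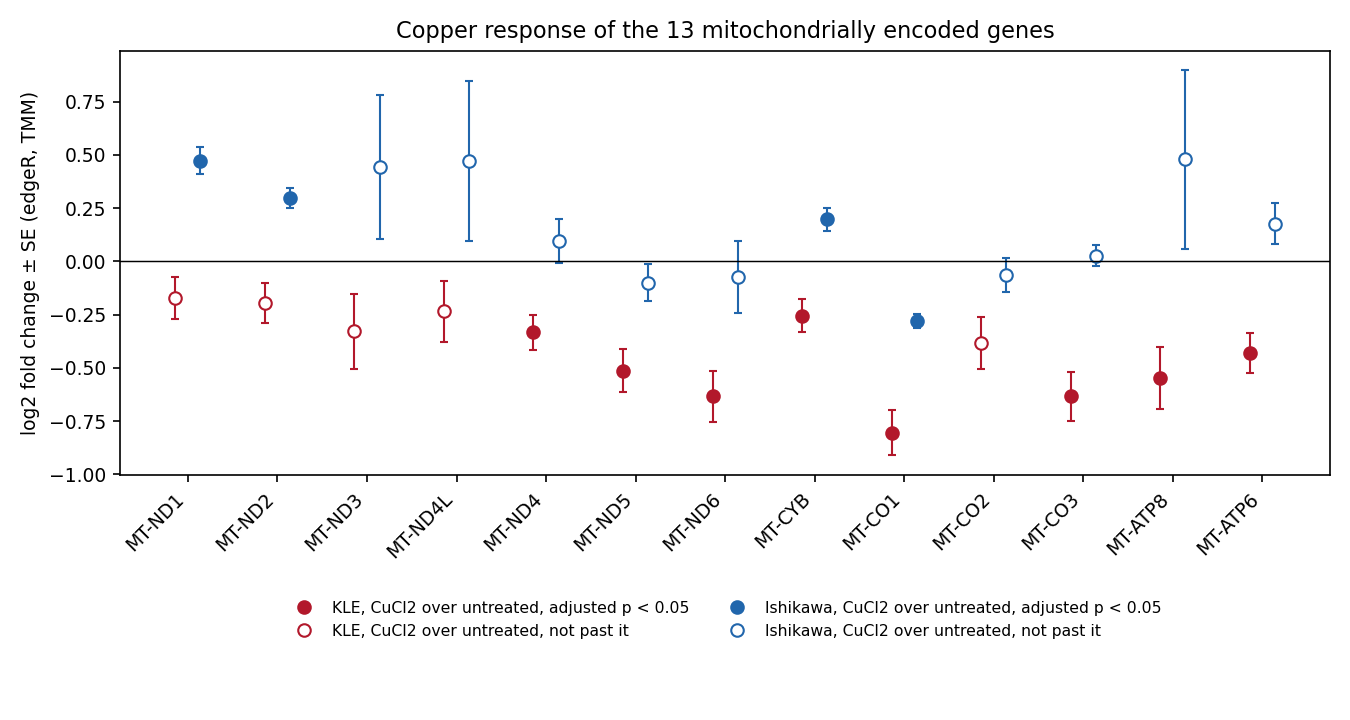
Log2 fold change of CuCl2 over untreated cells (y axis, edgeR with TMM scaling, bars show the standard error) for the 13 mitochondrially encoded genes grouped by complex (x axis), KLE in red and Ishikawa in blue, with filled points past an adjusted p of 0.05. All 13 KLE points lie below 0, and MT-CO1 is the gene with filled points below 0 in both lines.

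MT-CO1, the catalytic subunit of complex IV (chrM:5904-7445, GRCh38, plus strand), had 11530, 14015 and 13050 TPM in KLE CuCl2 libraries, against 24475, 22228 and 22278 TPM in untreated KLE libraries. In Ishikawa cells it had 18094, 19209 and 18176 TPM with CuCl2, against 25372, 25552 and 25544 TPM untreated. Every treated library of a line lay below every untreated one. The log2 fold change was -0.80 ± 0.11 in KLE cells (SE; edgeR adjusted p = 0.0038) and -0.28 ± 0.03 in Ishikawa cells (edgeR adjusted p = 4.3e-06), and the responses differed by -0.47 ± 0.11 (edgeR adjusted p = 0.0062). MT-CO1 stayed called lower in each line whichever library was left out.

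MT-CO3, the third mitochondrial subunit of complex IV, had 6892, 8473 and 7854 TPM in KLE CuCl2 libraries, against 13239, 11845 and 11773 TPM in untreated KLE libraries. Its log2 fold change was -0.63 ± 0.12 in KLE cells (SE; edgeR adjusted p = 0.0114). In Ishikawa cells it was 0.03 ± 0.05 (edgeR adjusted p = 0.63), a sign that turns with scaling: it was -0.13 with library totals and -0.15 on the TPM scale with a minimum mean of 1 TPM, both called lower. MT-CO2 had a log2 fold change of -0.38 ± 0.12 in KLE cells (edgeR adjusted p = 0.062) and -0.07 ± 0.08 in Ishikawa cells (edgeR adjusted p = 0.49). The 3 mitochondrial complex IV subunits together summed to 31021, 38194 and 35500 TPM in KLE CuCl2 libraries, against 58353, 52385 and 52348 TPM in untreated KLE libraries. In Ishikawa cells they summed to 46332, 47661 and 46955 TPM with CuCl2, against 60266, 55415 and 59644 TPM untreated. Neither line's groups overlapped in this sum.

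Of the complex I subunits in the mitochondrial genome, MT-ND1, which lies at the ubiquinone site, had 7368, 8180 and 8021 TPM in KLE CuCl2 libraries, against 9945, 8587 and 8646 TPM in untreated KLE libraries. It had 11690, 11579 and 11424 TPM in Ishikawa CuCl2 libraries, against 9870, 8585 and 9910 TPM in untreated Ishikawa libraries. The Ishikawa rise of 0.47 ± 0.06 (SE; edgeR adjusted p = 5.5e-05) was called under every alternative tried, and the KLE value was -0.17 ± 0.10 (edgeR adjusted p = 0.23). MT-ND2, a proton-pumping subunit, rose by 0.30 ± 0.05 in Ishikawa cells (edgeR adjusted p = 6.8e-05) and had -0.19 ± 0.09 in KLE cells (edgeR adjusted p = 0.17). The Ishikawa call of MT-ND2 was lost on the TPM scale. In KLE cells MT-ND5 fell by 0.51, MT-ND6 by 0.63 and MT-ND4 by 0.33 on the log2 scale. MT-ND6 is the one member encoded on the other strand of the mitochondrial genome.

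MT-CYB, the mitochondrial subunit of complex III, went in opposite directions: it fell by 0.25 ± 0.08 in KLE cells (SE; edgeR adjusted p = 0.049) and rose by 0.20 ± 0.05 in Ishikawa cells (edgeR adjusted p = 0.0059). The Ishikawa call of MT-CYB was lost with upper-quartile or library-total scaling and on the TPM scale, and the KLE call without KLE untreated 2, KLE untreated 3, KLE CuCl2 2 or KLE CuCl2 3 and when scaling left out the mitochondrial genes. The complex V subunits MT-ATP6 and MT-ATP8 fell by 0.43 and 0.55 in KLE cells and had 0.18 and 0.48 in Ishikawa cells, not called. MT-ATP8 overlaps MT-ATP6 and MT-ND4L overlaps MT-ND4 on shared messages, and nuclear copies of mitochondrial sequence exist, so how counts were split between these is uncertain. The number called lower in KLE cells was 8 with all libraries, 5 without KLE untreated 2, 3 without KLE CuCl2 1, 5 without KLE CuCl2 2 and 3 without KLE CuCl2 3. MT-CO1 and MT-CO3 were called in all of these fits that leave out a library, and the others that were lost had adjusted p values between 0.0503 and 0.112 with fitted values still below 0.

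The makeup of the mitochondrial transcripts changed in both lines, and a share within the 13 genes does not depend on how libraries are scaled. MT-CO1 made up 21.7, 23.0 and 22.6% of the counts of the 13 genes in KLE CuCl2 libraries, against 27.9, 28.5 and 28.6% in untreated KLE libraries. In Ishikawa cells MT-CO1 made up 22.1, 23.4 and 22.5% with CuCl2, against 26.8, 30.7 and 27.2% untreated. The groups did not overlap in either line. MT-ND1 took 8.51 ± 0.17% in KLE CuCl2 cells and 6.91 ± 0.10% in untreated KLE cells (SD, n = 3 each). It took 8.79 ± 0.06% in Ishikawa CuCl2 cells and 6.47 ± 0.07% in untreated Ishikawa cells. MT-ND2 took 12.4 ± 0.34% in KLE CuCl2 cells and 10.2 ± 0.05% in untreated KLE cells, and in Ishikawa cells 10.6 ± 0.04% with CuCl2 and 8.85 ± 0.28% untreated.

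The shares of MT-ND4, MT-CYB and MT-ATP6 were also above the untreated range in both lines. MT-CO2 went apart: its share was 11.1 ± 0.47% in KLE CuCl2 cells and 10.4 ± 0.02% in untreated KLE cells, and 9.16 ± 0.20% in Ishikawa CuCl2 cells and 9.77 ± 0.31% in untreated Ishikawa cells. MT-CO3 took 6.86 ± 0.24% in KLE CuCl2 cells and 7.69 ± 0.04% in untreated KLE cells, and its Ishikawa groups overlapped. The 13 shares sum to a whole, so a lower share of MT-CO1 raises the others and they are not separate results. No test was run on them, and with 3 libraries against 3 no exact permutation test could pass.

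**Figure D2:**
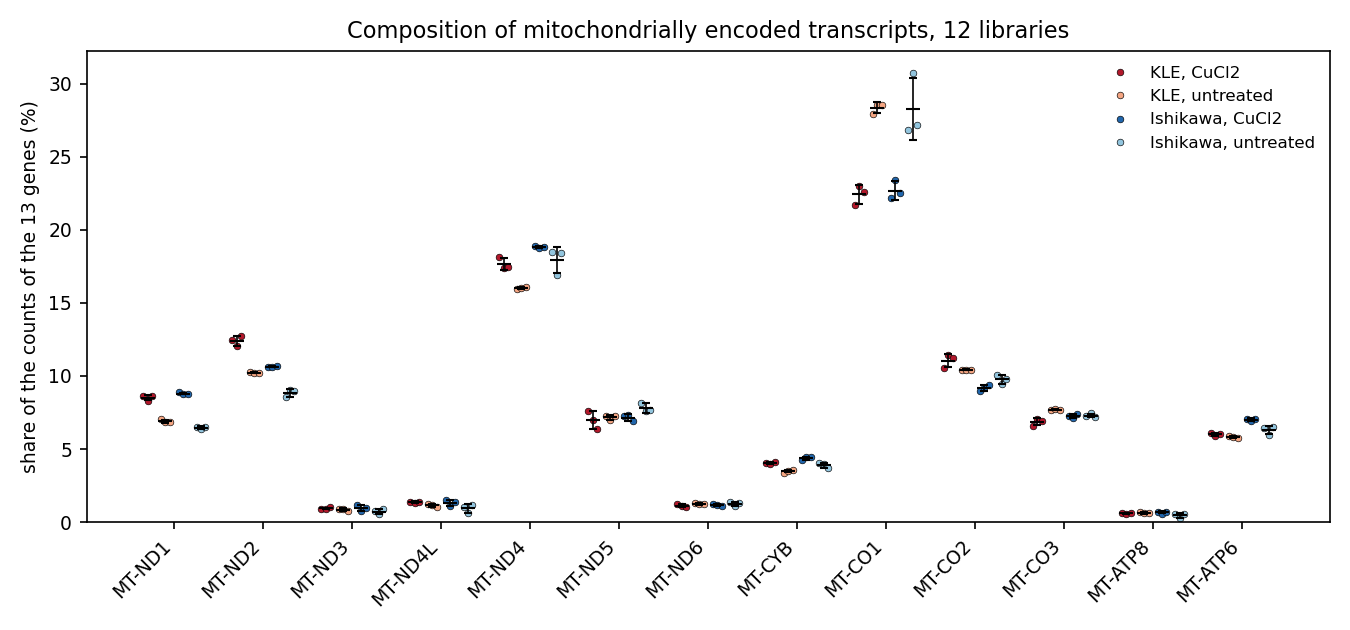
Share of the counts of the 13 mitochondrially encoded genes taken by each gene (y axis, percent) in each library, with points for libraries and black marks for the group mean ± SD (n = 3), and genes along the x axis grouped by complex. MT-CO1 lies near 22 to 23% in the CuCl2 libraries of both lines and above 26% in all untreated ones, and MT-ND1 and MT-ND2 lie above their untreated libraries.

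Among the nuclear subunits, 82 of 88 could be tested in KLE cells and 83 in Ishikawa cells. COX6A2 and COX8C had 0 counts in every library, and UQCRHL, COX7A1 and ATP5MGL had at most 4 counts in any library. In KLE cells 11 were called higher and 7 lower, 22.0% of those tested, a smaller share than over all genes, and their median log2 fold change was 0.02 against -0.002 over all genes. In Ishikawa cells 23 were called higher and 11 lower, 41.0% of those tested, with a median of 0.11 against -0.01 over all genes. That nuclear median was 0.04 without Ishikawa untreated 2 and 0.05 without Ishikawa CuCl2 1. Only COX6B2 passed a log2 change of 0.5 among the KLE calls, and 6 did among the Ishikawa calls. In KLE cells 5 were called higher without KLE untreated 3, 7 without KLE CuCl2 1 and 4 without KLE CuCl2 3, and 4 were called lower without KLE untreated 2.

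The direction of the small Ishikawa changes depended on the scaling, and their positive median under TMM stands beside the lower share of counts given above. When scaled by library totals alone, all genes had a median of -0.17, and 9 nuclear members were called higher and 26 lower. With upper-quartile factors that median was -0.12, and the calls were 11 higher and 21 lower. In KLE cells upper-quartile factors gave 5 higher and 12 lower. Each nuclear member called in a line kept its sign under every scaling tried, except ATP5PB, a stator subunit of complex V, in Ishikawa cells (0.13, and -0.03 with library totals).

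**Figure D3:**
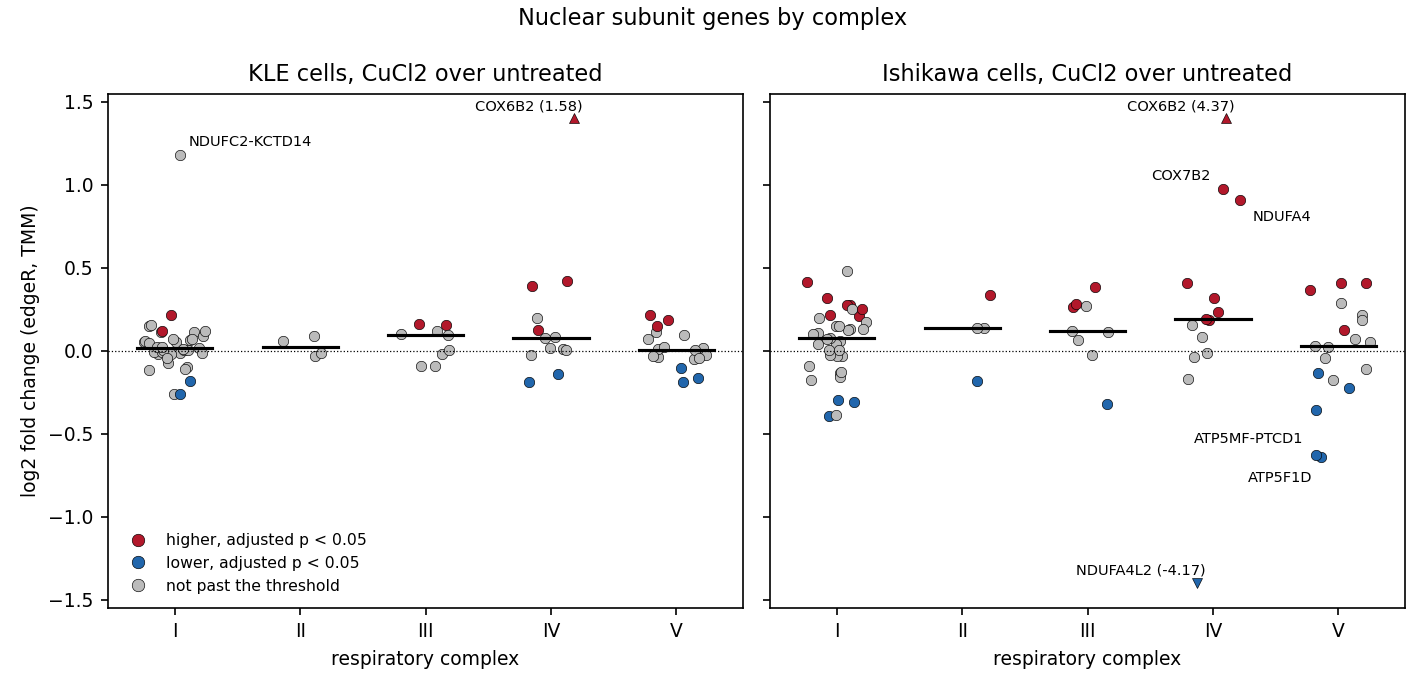
Log2 fold change of CuCl2 over untreated cells (y axis, edgeR with TMM scaling) for the nuclear subunit genes tested in KLE (left) and Ishikawa cells (right), by complex (x axis), with black bars for medians. Values beyond the axis limit are drawn as triangles at the edge with their value; most points lie within 0.5 of 0, and complex IV holds the widest changes.

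In complex I, none of the 7 nuclear core subunits, which carry the flavin and the iron-sulfur clusters, was called in KLE cells, and 2 of 7 were called higher in Ishikawa cells (NDUFS1 by 0.22 and NDUFS3 by 0.25, both lost with library totals, with upper-quartile factors and on the TPM scale). At an unadjusted p below 0.05 the KLE count of core subunits was also 0. In Ishikawa cells it was 2 higher and 2 lower, with core values from -0.38 to 0.25. The 30 accessory genes gave 2 higher and 2 lower in KLE cells and 5 higher and 3 lower in Ishikawa cells. In KLE and Ishikawa cells 13.3% and 26.7% of the accessory genes were called, against 50.8% and 69.1% of all genes. NDUFB9, an accessory subunit of the membrane arm, rose by 0.41 ± 0.06 in Ishikawa cells (SE; edgeR adjusted p = 4.5e-05) and by 0.12 ± 0.05 in KLE cells (edgeR adjusted p = 0.034), a KLE call held in 1 of 6 fits with a library left out. NDUFB10, also of the membrane arm, had 135.5, 137.3 and 143.1 TPM in KLE CuCl2 libraries, against 172.8, 185.7 and 155.4 TPM in untreated KLE libraries. It had 135.2, 123.9 and 128.7 TPM in Ishikawa CuCl2 libraries, against 183.2, 172.7 and 183.8 TPM in untreated Ishikawa libraries, and so lay lower with CuCl2 in every library of both lines. Its log2 fold change was -0.26 ± 0.07 in KLE cells and -0.30 ± 0.07 in Ishikawa cells (SE; edgeR adjusted p = 0.0013 and 0.0019), and it stayed called in both lines under every alternative.

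Other accessory genes moved in a single line. NDUFA7 and NDUFB7 fell by 0.39 and 0.31 in Ishikawa cells and had 0.16 and 0.05 in KLE cells, not called, and their responses differed between the lines by 0.60 ± 0.16 and 0.42 ± 0.11 (SE; edgeR adjusted p = 0.0039 and 0.0034). NDUFS5 rose by 0.32 in Ishikawa cells, a call lost without Ishikawa untreated 1 or Ishikawa untreated 2, with upper-quartile and library-total scaling and on the TPM scale (0.13). In KLE cells NDUFA2 rose by 0.22, a call held in 1 of 6 fits with a library left out, and NDUFB11 fell by 0.18, lost without KLE untreated 1 or KLE CuCl2 1. The readthrough transcript NDUFC2-KCTD14 had the widest KLE value of complex I, 1.18 ± 0.57 (edgeR adjusted p = 0.15), with 101, 35 and 46 counts in CuCl2 libraries, against 27, 13 and 40 counts in untreated libraries, and shares its exons with NDUFC2.

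Complex II, the succinate dehydrogenase of the citric acid cycle, has no mitochondrially encoded subunit. None of its 4 genes was called in KLE cells, where 1 was higher at an unadjusted p below 0.05 (SDHB, 0.09). In Ishikawa cells its catalytic subunits moved apart. SDHA, the flavoprotein, had 88.4, 87.5 and 88.1 TPM in Ishikawa CuCl2 libraries, against 107.8, 117.5 and 102.4 TPM in untreated Ishikawa libraries, a log2 fold change of -0.18 ± 0.05 (SE; edgeR adjusted p = 0.0076). SDHB, the iron-sulfur subunit, had 208.8, 201.4 and 206.5 TPM with CuCl2, against 194.0, 182.3 and 179.0 TPM untreated, a log2 fold change of 0.34 ± 0.06 (edgeR adjusted p = 9.1e-05). Both calls held under all alternatives in Ishikawa cells. The membrane anchors SDHC and SDHD had 0.14 each, not called, and were called higher without Ishikawa untreated 2 at 0.18 and 0.21.

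In complex III, UQCRQ, a small subunit bound to cytochrome b, rose in both lines, by 0.16 in KLE cells and 0.38 in Ishikawa cells. The KLE call of UQCRQ held in 2 of 6 fits with a library left out, and the Ishikawa call was lost with library totals and on the TPM scale. CYC1, the cytochrome c1 that hands electrons to cytochrome c, fell by 0.32 ± 0.07 in Ishikawa cells (SE; edgeR adjusted p = 0.0016). It had 119.9, 131.9 and 119.7 TPM in Ishikawa CuCl2 libraries, against 174.8, 198.6 and 152.7 TPM in untreated Ishikawa libraries. In KLE cells CYC1 had -0.09 (edgeR adjusted p = 0.15). UQCRH, the hinge protein, rose by 0.28 in Ishikawa cells, not called without Ishikawa untreated 2, with upper-quartile and library-total scaling or on the TPM scale (0.09), and UQCR11 rose by 0.15 in KLE cells, called in 2 of 6 fits with a library left out.

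In complex IV, NDUFA4 and 2 isoforms known mainly from testis, COX7B2 and COX6B2, rose in both lines, and NDUFA4L2 fell in Ishikawa cells. The COX6B2 rise rests on few counts. Of the nuclear complex IV genes tested, 4 rose and 2 fell in KLE cells (of 13) and 8 rose and 1 fell in Ishikawa cells (of 14). Together 46.2% and 64.3% were called, against 50.8% and 69.1% of all genes. Higher calls were 25.6% and 33.8% of all genes. NDUFA4 (chr7:10931951-10940256, GRCh38, minus strand) had 95.6, 87.7 and 96.7 TPM in KLE CuCl2 libraries, against 63.6, 77.9 and 72.7 TPM in untreated KLE libraries. In Ishikawa cells NDUFA4 had 137.2, 120.7 and 133.8 TPM with CuCl2, against 77.6, 81.6 and 77.7 TPM untreated. All treated libraries lay above all untreated ones of their line. It rose by 0.42 ± 0.05 in KLE cells (SE; edgeR adjusted p = 1.6e-07) and by 0.91 ± 0.06 in Ishikawa cells (edgeR adjusted p = 5.2e-09), and the response was smaller in KLE cells by 0.43 ± 0.09 (edgeR adjusted p = 0.0004). These 3 calls held under all alternatives and with any library left out.

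NDUFA4L2 (chr12:57234903-57240715, GRCh38, minus strand), the paralog known as a target of the hypoxia-inducible factor, had 3, 4 and 3 counts in Ishikawa CuCl2 libraries, against 56, 128 and 58 counts in untreated Ishikawa libraries. In TPM it averaged 0.441 ± 0.069 in Ishikawa CuCl2 cells and 8.91 ± 1.88 in untreated Ishikawa cells (SD, n = 3 each). NDUFA4L2 passed the Ishikawa count filter only through the untreated libraries, where it is high, which favours a call lower. The log2 fold change was -4.17 ± 0.33 (SE; edgeR adjusted p = 3.9e-08), and the summed counts gave a ratio of 0.0505 (exact 95% counting interval 0.0239 to 0.0944). In KLE cells NDUFA4L2 was near the floor throughout, with 4, 3 and 4 counts with CuCl2, against 6, 4 and 10 counts untreated, a ratio of 0.557 (0.241 to 1.22), and was not tested within that line. In Ishikawa cells NDUFA4 rose and NDUFA4L2 fell, and the level of NDUFA4L2 in TPM stayed well below that of NDUFA4 in every group.

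COX7B2, the paralog of COX7B (chr4:46734827-46909235, GRCh38, minus strand), had 53.3, 45.6 and 47.4 TPM in KLE CuCl2 libraries, against 34.9, 38.9 and 40.9 TPM in untreated KLE libraries. In Ishikawa cells COX7B2 had 28.1, 27.8 and 27.8 TPM with CuCl2, against 11.8, 16.6 and 19.7 TPM untreated, with no overlap in either line. It rose by 0.39 ± 0.11 in KLE cells (SE; edgeR adjusted p = 0.0022) and by 0.98 ± 0.17 in Ishikawa cells (edgeR adjusted p = 0.00013). Its constitutive partner COX7B fell by 0.14 in KLE cells, not called on the TPM scale, and had -0.01 in Ishikawa cells, not called. COX6B2, the testis isoform of COX6B, was rare, with 48 counts summed over the KLE CuCl2 libraries, against 16 over the untreated KLE libraries, and 55 counts over the Ishikawa CuCl2 libraries, against 3 over the untreated Ishikawa libraries. The ratio of summed counts was 3.04 in KLE cells (exact 95% counting interval 1.69 to 5.73) and 22.4 in Ishikawa cells (7.27 to 112). COX6B2 was called higher in both lines (edgeR adjusted p = 0.004 in KLE cells and 3.3e-05 in Ishikawa cells). It passed the count filter of each line only through the CuCl2 libraries, where it is high. That filter favours a call in this direction, so the 2 calls are not separate support for the rise. Its mean level stayed at or below 1.26 TPM, against a lowest group mean of 271.4 TPM for the constitutive COX6B1.

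**Figure D4:**
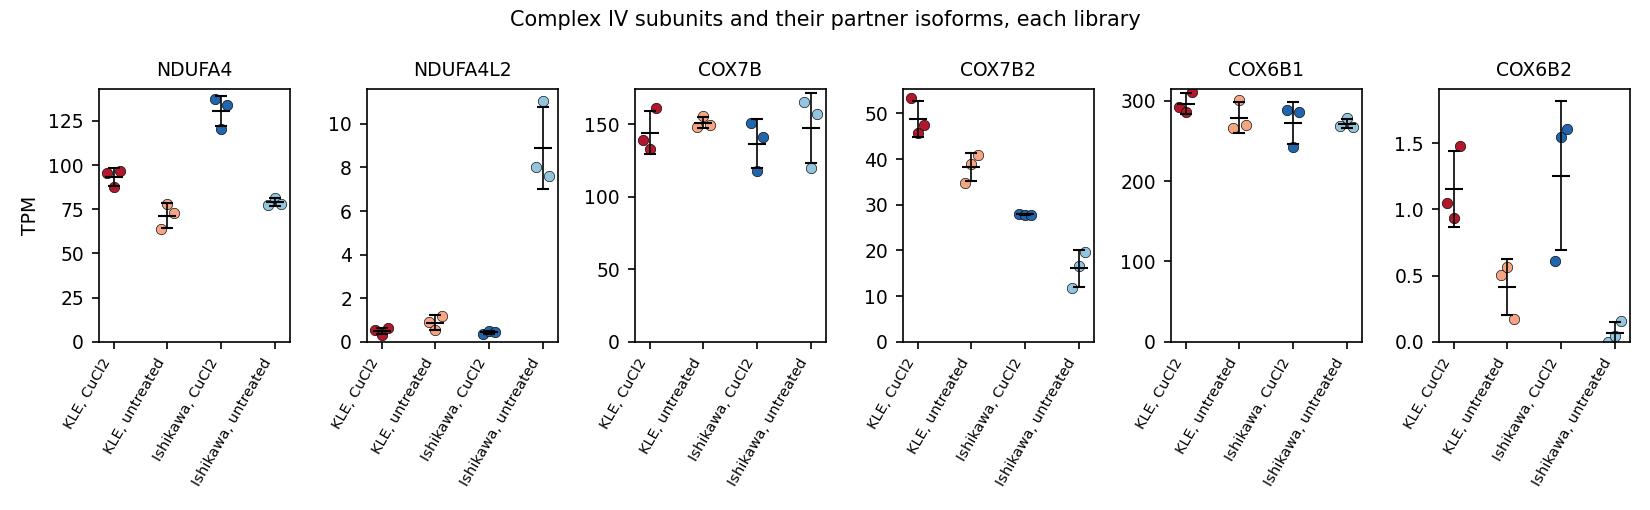
TPM (y axis, each panel on its own scale from 0) of 3 complex IV subunits and their paralogs in each library, with points for libraries and black marks for the mean ± SD (n = 3). NDUFA4 and COX7B2 lie higher with CuCl2 in both lines, NDUFA4L2 lies near 0.44 TPM in Ishikawa CuCl2 cells and near 8.9 TPM in untreated Ishikawa cells, and COX6B2 stays under 2 TPM.

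The other complex IV genes moved less. COX7A2L, which joins complexes III and IV in supercomplexes, rose by 0.32 ± 0.06 in Ishikawa cells (SE; edgeR adjusted p = 0.00021) under all alternatives and had 0.07 in KLE cells (edgeR adjusted p = 0.21). COX6A1 rose by 0.18 and COX6B1 by 0.19 in Ishikawa cells, calls that were lost with library totals, with upper-quartile factors and on the TPM scale. COX6B1 rose by 0.12 in KLE cells (edgeR adjusted p = 0.049), a call lost without KLE untreated 1, KLE untreated 3 or KLE CuCl2 3 and with upper-quartile factors, library totals, DESeq2 and limma, and its Ishikawa call held in 2 of 6 fits with a library left out. COX5B fell by 0.19 in KLE cells, not called without KLE untreated 2. COX7A2 and COX8A were not called in either line.

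In complex V, 3 nuclear genes rose and 3 fell in KLE cells and 4 rose and 5 fell in Ishikawa cells, of 19 tested in each. Together 31.6% and 47.4% were called, against 50.8% and 69.1% of all genes. ATP5F1A and ATP5F1D fell and ATP5MG and ATP5MK rose in both lines. ATP5F1A, the alpha subunit of the head, had 414.4, 391.4 and 388.6 TPM in KLE CuCl2 libraries, against 411.2, 460.2 and 445.7 TPM in untreated KLE libraries. In Ishikawa cells ATP5F1A had 355.5, 346.2 and 344.9 TPM with CuCl2, against 479.2, 568.1 and 483.9 TPM untreated. The log2 fold change was -0.11 ± 0.03 in KLE cells (SE; edgeR adjusted p = 0.0072) and -0.36 ± 0.05 in Ishikawa cells (edgeR adjusted p = 2.8e-05), and the KLE call was lost without KLE untreated 2. ATP5F1D, the delta subunit of the central stalk, fell by 0.64 ± 0.11 in Ishikawa cells (edgeR adjusted p = 0.00016). In KLE cells it fell by 0.17 ± 0.07 (edgeR adjusted p = 0.049), a call that held in 1 of 6 fits with a library left out and was lost with DESeq2. The catalytic beta subunit ATP5F1B was not called in either line (0.02 and -0.05).

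Of the membrane part, ATP5MG, subunit g of the dimer interface, rose by 0.19 ± 0.04 in KLE cells and 0.41 ± 0.06 in Ishikawa cells (SE; edgeR adjusted p = 0.00015 and 5.7e-05) under every alternative. ATP5MK, a small subunit beside it, rose by 0.15 in KLE cells, a call lost without KLE untreated 3 or KLE CuCl2 3 and with library totals, and by 0.36 in Ishikawa cells, lost on the TPM scale. ATP5MJ, another small membrane subunit, rose by 0.21 in KLE cells, lost without KLE CuCl2 3. ATP5MC2, which encodes the c-ring protein, fell by 0.19 in KLE cells. ATP5IF1, the inhibitor that stops the enzyme from running backwards, rose by 0.41 ± 0.08 in Ishikawa cells (edgeR adjusted p = 0.0004), a call lost on the TPM scale, and had -0.02 in KLE cells. The readthrough transcript ATP5MF-PTCD1 fell by 0.63 ± 0.12 in Ishikawa cells (edgeR adjusted p = 0.00031) and had 0.07 in KLE cells. It shares exons with ATP5MF, so its counts depend on how reads were divided. Many small nuclear subunits also have processed pseudogenes, with the same limit.

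In all, 8 nuclear members were called higher in both lines (NDUFB9, UQCRQ, COX6B1, COX6B2, COX7B2, NDUFA4, ATP5MG and ATP5MK) and 3 lower in both (NDUFB10, ATP5F1A and ATP5F1D). The lists of calls are of unequal size: these 8 are 8 of the 11 called higher in KLE cells and of the 23 in Ishikawa cells, and the 3 are 3 of 7 and of 11. No nuclear member was called in opposite directions. Of the 82 nuclear members tested in both lines, 9.76% were higher in both and 3.66% lower in both, below the 18.9% and 19.3% of all 12806 genes tested in both lines, of which 2.73% were called in opposite directions.

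Upstream sequence was looked at for members that moved alike. In the RefSeq promoter table (GRCh38.p14, from 250 bases before to 50 bases after a gene's start) 69 of the 88 nuclear members had an entry, among 27305 promoters. NRF1 and the ETS factor GABPA are the textbook activators of respiratory chain genes. The ETS core CCGGAAG, on either strand, lay in 27.5% of the members' promoters and 10.7% of all promoters. The GC-rich NRF1 palindrome, with its centre left free, lay in 26.1% of the members' and 8.78% of all promoters, and its stricter form with a fixed centre, which is a part of the first, in 5.80% and 1.36%. The antioxidant response core TGACNNNGC lay in 14.5% and 13.6%, and the heat shock element, 3 alternating repeats, in 0 of 69 and in 0.487%. By call, 9 of the 19 members with an entry that were called higher in Ishikawa cells held the ETS core, against 2 of 6 called lower and 8 of 42 not called. In KLE cells it was 5 of 9 called higher, 1 of 6 called lower and 13 of 52 not called. These counts are descriptions, and a match is not a bound site. The 27305 promoters reach beyond the 20332 genes in the table and were not matched to the members for expression or kind of gene.

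The 250 bases before the start are shown for ATP5MK and UQCRQ, which were called higher in both lines and hold the ETS core there. They are also shown for NDUFB10, which fell in both and holds the NRF1 palindrome only with its centre left free. These were picked for their matches. Of the others called alike in both lines, COX6B1 and ATP5MG also hold the ETS core. COX6B2, COX7B2 and ATP5F1A hold none of the motifs, and NDUFA4, NDUFB9 and ATP5F1D had no entry. The KLE calls of ATP5MK and UQCRQ were lost in some of the fits named above; ATP5MG, called in both lines under every alternative, holds its ETS core after the start, outside the stretch shown. Letters read 5′ to 3′ on the gene's own strand, with matches in capitals. ATP5MK (chr10:103396476-103396725, minus strand) holds 2 ETS cores, 1 on each strand, that overlap by 4 bases; UQCRQ (chr5:132866392-132866641, plus strand) holds 1, and NDUFB10 lies at chr16:1959288-1959537, plus strand.
ATP5MK: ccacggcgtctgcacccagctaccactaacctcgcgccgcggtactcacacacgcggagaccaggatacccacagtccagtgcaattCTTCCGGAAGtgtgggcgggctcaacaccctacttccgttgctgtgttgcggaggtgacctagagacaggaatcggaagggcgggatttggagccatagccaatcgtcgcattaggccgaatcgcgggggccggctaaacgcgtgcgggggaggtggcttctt
UQCRQ: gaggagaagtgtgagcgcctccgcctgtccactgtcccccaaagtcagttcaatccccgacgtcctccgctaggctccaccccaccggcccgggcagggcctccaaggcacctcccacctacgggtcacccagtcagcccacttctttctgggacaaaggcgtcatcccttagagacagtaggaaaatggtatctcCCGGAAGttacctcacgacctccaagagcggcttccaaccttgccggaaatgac
NDUFB10: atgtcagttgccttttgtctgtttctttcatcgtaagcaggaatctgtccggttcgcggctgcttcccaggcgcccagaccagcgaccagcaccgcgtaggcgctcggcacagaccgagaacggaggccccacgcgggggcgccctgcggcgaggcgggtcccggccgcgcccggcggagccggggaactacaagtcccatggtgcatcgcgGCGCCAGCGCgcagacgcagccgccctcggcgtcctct

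Untreated KLE and Ishikawa cells were compared for starting levels, in which 50.0% of 13663 genes were called, 24.5% higher and 25.6% lower in KLE cells. Of the nuclear members 9 were higher and 16 lower in KLE cells, and of the mitochondrial ones MT-CYB was lower by 0.26 and 0 were higher, also at an unadjusted p below 0.05 and with DESeq2 and limma. COX7B2 averaged 38.2 ± 3.06 TPM in untreated KLE cells and 16.1 ± 3.98 TPM in untreated Ishikawa cells (SD, n = 3 each), a log2 difference of 1.30 ± 0.14 (SE; edgeR adjusted p = 4.5e-08). NDUFA4L2 averaged 0.873 ± 0.342 TPM in untreated KLE cells and 8.91 ± 1.88 TPM in untreated Ishikawa cells (log2 difference -3.20 ± 0.33; edgeR adjusted p = 1.7e-08). COX6B2 had 16 summed counts in untreated KLE cells and 3 in untreated Ishikawa cells, a ratio of 6.68 (exact 95% counting interval 1.91 to 35.8).

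Other nuclear subunits were called too. SDHA was lower by 0.43 and SDHB higher by 0.27 in untreated KLE cells, ATP5F1B lower by 0.41, ATP5F1D by 0.43, CYC1 by 0.40 and NDUFA9, an accessory subunit of complex I, by 0.43. ATP5MC2 was higher by 0.35, NDUFV2, which carries an iron-sulfur cluster, by 0.26 and UQCR10 by 0.27. COX6A1 was lower by 0.26. The level of the nuclear members had a median of 122.2 TPM over genes in untreated KLE cells and 129.2 TPM in untreated Ishikawa cells, and that of the mitochondrial members 9059 and 9455 TPM. ATP5F1B was the most abundant nuclear member in every group, at 903.0 ± 55.4 TPM in untreated KLE cells and 1256 ± 128 TPM in untreated Ishikawa cells (SD, n = 3 each). Without Ishikawa untreated 2 the number of mitochondrial members lower in KLE cells was 4, with MT-ND4, MT-ND5 and MT-ATP6 added. Nuclear members were then 6 higher and 16 lower, and the calls of NDUFA13, NDUFS4, NDUFV1, UQCRC1, UQCRC2, COX8A and ATP5IF1 were lost. Without KLE untreated 1 the number of mitochondrial members lower was 3. Without Ishikawa untreated 3, 15 nuclear members were higher.

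The response was called different between the lines for 19 nuclear members, 10 with a higher and 9 with a lower value in KLE cells. They are 22.9% of the 83 tested, a smaller share than the 45.4% of all genes (24.6% higher and 20.8% lower). ATP5F1D had the difference 0.53 ± 0.14 and ATP5F1A 0.31 ± 0.07 (SE; edgeR adjusted p = 0.0027 and 0.00059), both being falls that were larger in Ishikawa cells. COX7B2 had -0.53 ± 0.19 and COX6B2 -2.71 ± 0.93 (edgeR adjusted p = 0.028 and 0.021), both being rises that were larger in Ishikawa cells. Without Ishikawa untreated 2 the differences of SDHB (-0.16), CYC1 (0.20) and COX7A2L (-0.14) were not called. The COX7B2 call was lost with library totals and without Ishikawa untreated 1, KLE untreated 2, KLE untreated 3 or KLE CuCl2 2, and the COX6B2 call was lost without Ishikawa untreated 1, Ishikawa untreated 2 or KLE untreated 2. The scaling moved this split, to 20 higher and 3 lower with library totals, where the median of all genes was 0.10. The number with a lower value was 4 without Ishikawa untreated 1, 17 without Ishikawa CuCl2 2, 3 without KLE untreated 2 and 5 without KLE CuCl2 2, and the number with a higher value was 6 without Ishikawa CuCl2 2, Ishikawa CuCl2 3 or KLE CuCl2 3.

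Genes that make, regulate or assemble the complexes were read from lists. Over all genes, 25.6% were called higher and 25.2% lower in KLE cells, and 33.8% higher and 35.3% lower in Ishikawa cells. Of 9 further respiratory chain proteins, 8 could be tested, of which 4 rose and 1 fell in KLE cells and 6 rose and 2 fell in Ishikawa cells. CYCS, the electron carrier between complexes III and IV, rose by 0.21 and 0.53 in KLE and Ishikawa cells, and NDUFAB1, the acyl carrier protein of complex I, by 0.27 and 0.30. SQOR, which feeds electrons from sulfide to ubiquinone, rose by 0.45 and 0.41, and DHODH, which does so from dihydroorotate, fell by 0.24 and 0.92. COX4I1, the constitutive subunit 4 of complex IV, rose by 0.23 in Ishikawa cells and had 0.05 in KLE cells, not called. COX4I2 was too low to be tested.

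Of 20 genes for processing and stability of mitochondrial RNA, 7 rose and 0 fell in KLE cells, and 6 rose and 5 fell in Ishikawa cells. At an unadjusted p below 0.05 the number that fell in KLE cells was also 0. This list had 35% called in KLE cells and 55% in Ishikawa cells, against 50.8% and 69.1% of all genes. REXO2, an exonuclease for short RNA, rose by 0.54 and 1.08 in KLE and Ishikawa cells, and SUPV3L1, the helicase of the RNA-degrading complex, by 0.21 and 1.11. LRPPRC, which keeps mitochondrial messages stable, rose by 0.16 and 0.53. Of 16 genes for upkeep and transcription of mitochondrial DNA, 3 rose and 4 fell in KLE cells and 6 rose and 5 fell in Ishikawa cells, 43.8% and 68.8% called. POLRMT, the mitochondrial RNA polymerase, fell by 0.21 and 0.37, and TFAM, which packages the DNA and starts transcription, rose by 0.15 and 0.36. TOP1MT, the mitochondrial topoisomerase, fell by 0.29 and 0.98.

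Of 10 nuclear regulators, 9 could be tested, of which 1 rose and 4 fell in KLE cells and 1 rose and 5 fell in Ishikawa cells. Together 55.6% and 66.7% were called, against 50.8% and 69.1% of all genes. The coactivator PPARGC1B fell by 0.65 and 1.24 in KLE and Ishikawa cells, and MYC by 0.48 and 1.67. NRF1 fell by 0.56 in Ishikawa cells and had -0.02 in KLE cells, not called. GABPA fell by 0.14 in KLE cells and rose by 0.29 in Ishikawa cells, and these responses differed by -0.37 ± 0.09 (SE; edgeR adjusted p = 0.0012), though all 3 GABPA calls were lost on the TPM scale and the KLE one in 4 of 6 fits with a library left out. PPARGC1A was not called in either line and was lower in untreated KLE than in untreated Ishikawa cells by 3.38.

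Of 25 assembly factors for complex IV, 5 rose and 3 fell in KLE cells and 5 rose and 10 fell in Ishikawa cells. COA6, which helps to load copper, rose by 0.39 and 0.67 in KLE and Ishikawa cells, and COX18, which inserts MT-CO2 into the membrane, fell by 1.00 in Ishikawa cells with -0.02 in KLE cells. SCO2, a copper chaperone for MT-CO2, fell by 1.14 in Ishikawa cells and had 0.21 in KLE cells, not called. Of 19 for complex I, 3 rose and 0 fell in KLE cells and 3 rose and 5 fell in Ishikawa cells, led by NDUFAF7 at 1.02 and NDUFAF3 at -0.61. Of 4 for complex II, 2 fell in KLE cells, and 1 rose and 2 fell in Ishikawa cells, SDHAF3 and SDHAF4 in both. Of 9 for complex III, 2 rose in KLE cells, and 3 rose and 3 fell in Ishikawa cells, with UQCC1 up by 0.22 and 0.90. Of 6 for complex V, 1 rose in KLE cells (TMEM70, 0.22), and 2 rose and 1 fell in Ishikawa cells. The shares called in KLE and Ishikawa cells were 15.8 and 42.1% for complex I, 50 and 75% for complex II and 22.2 and 66.7% for complex III. They were 32 and 60% for complex IV and 16.7 and 50% for complex V, against 50.8 and 69.1% of all genes.

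Of 14 mitochondrial proteases and chaperones, 5 rose and 2 fell in KLE cells and 4 rose and 4 fell in Ishikawa cells. HSPA9, the motor of protein import, rose by 0.28 and 1.19, and TRAP1, a mitochondrial chaperone, fell by 0.18 and 0.58. Of 13 outer membrane proteins and gauges of mitochondrial mass, 6 rose and 2 fell in KLE cells and 7 rose and 3 fell in Ishikawa cells. VDAC2, an outer membrane channel, rose by 0.22 and 0.57. These counts stand beside a background of 50.8% of genes called in KLE cells and 69.1% in Ishikawa cells.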

How the data were processed

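RNA from KLE and Ishikawa cells was measured in 12 libraries. Messages were selected with oligo(dT) from TRIzol extracts, per the labels' protocols. HISAT2 2.1.0, RSEM, the GRCh38.p14 build, fastp 0.18.0 and Bowtie2 2.2.8 stand in the submitters' processing notes. Use of strand in counting is not given in the sources used here. Per gene, the authors deposited read counts, expected counts and TPM. The deposited counts are the expected counts rounded to whole numbers within 0.5.

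Counts were scaled with TMM factors, filtered with filterByExpr and tested with edgeR 4.0.16 (quasi-likelihood, robust, R 4.3.3), with Benjamini-Hochberg adjustment over all genes tested. Each line was fitted on its 6 libraries, and differences between lines on all 12. TPM, which is per length, was used for levels between genes. DESeq2 1.42.0, limma 3.58.1 (log2 of TPM plus 1 or 0.1), other scalings and filters, a replicate block and each library left out were alternatives. The edgeR test was checked on simulated data.

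Named were all mitochondrial members, the SDH genes, members with paralogs, and per complex and comparison up to 2 called members in each direction with the largest change and a mean of at least 5 CPM; of the lists, up to 2 called per direction and fixed regulators. Other named genes, such as NDUFC2-KCTD14, NDUFS1, NDUFS3, ATP5F1A, ATP5F1B, ATP5MK, ATP5PB and NDUFB10 in Ishikawa cells, were chosen after their values were seen. Members and lists were chosen with earlier results of these data known. Intervals cover counting error only.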

Additional observations from a re-analysis of the deposited data

Results flagged for a closer look

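Each of the following members was called for a difference between KLE and Ishikawa cells in the response to CuCl2, by the interaction test over 12 libraries (edgeR, Benjamini-Hochberg adjusted p below 0.05). They are 26.0% of the 96 members tested, a smaller share than the 45.4% of all 13663 genes. The values are KLE minus Ishikawa differences in log2 fold change, and no explanation was tested. Of the mitochondrial genes, the difference was -0.59 for MT-ND1, -0.43 for MT-ND2, -0.39 for MT-CYB, -0.47 for MT-CO1, -0.60 for MT-CO3 and -0.55 for MT-ATP6. In complex I it was -0.17 for NDUFA10, 0.41 for NDUFA2, 0.60 for NDUFA7, 0.42 for NDUFB7 and -0.24 for NDUFB9. In complex II it was 0.21 for SDHA and -0.19 for SDHB, and in complex III 0.28 for CYC1 and -0.20 for UQCRC2. In complex IV it was -2.71 for COX6B2, -0.19 for COX7A2L, -0.53 for COX7B2, -0.43 for NDUFA4 and 3.39 for NDUFA4L2, which had at most 10 counts in any KLE library. A fall like the Ishikawa one could not be seen from that KLE level, so the NDUFA4L2 value does not show unlike responses. In complex V the difference was 0.31 for ATP5F1A, 0.53 for ATP5F1D, -0.37 for ATP5IF1, 0.75 for ATP5MF-PTCD1 and 0.19 for ATP5PO. Without Ishikawa untreated 2, the library that stood apart, the differences of SDHB (-0.16; edgeR adjusted p = 0.055), CYC1 (0.20; edgeR adjusted p = 0.061), COX7A2L (-0.14; edgeR adjusted p = 0.12) and COX6B2 (-2.46; edgeR adjusted p = 0.058) were not called. The CYC1 difference was not called in 8 of the 12 fits with a library left out.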

How the results depend on the processing

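Of the members called, 7 of 26 in KLE cells, 17 of 38 in Ishikawa cells, 11 of 25 for the difference in response and 14 of 26 between untreated lines kept direction and call wherever tested, over 12 alternatives and each library left out. A fit whose filter dropped a member was not counted against that member. In Ishikawa cells the nuclear members called higher and lower numbered 9 and 26 with library totals, 11 and 21 with upper-quartile scaling, 9 and 28 with limma on log2 TPM with either pseudocount, and 8 and 28 with a minimum mean of 1 TPM; all genes' medians moved down with these scalings. The mitochondrial members called lower there were 4 with library totals, 3 (and 1 higher) with limma on TPM and 4 (and 1 higher) with the minimum. MT-CO3 in Ishikawa cells turned to -0.13 with library totals and -0.15 with limma on TPM with the minimum, and ATP5PB to -0.029 with library totals and -0.017 with limma on TPM. HSPA9 between untreated lines turned to -0.0060 with limma on TPM. In KLE cells the nuclear members called higher were 5 with upper-quartile scaling (12 lower), totals, DESeq2 and limma on TPM, and 4 with the minimum; 13 mitochondrial members were called lower with limma-voom and limma on TPM. For the difference in response, 20 nuclear members were higher and 3 lower with library totals, 19 and 1 with limma on TPM, and 6 higher with DESeq2; 11 mitochondrial members were lower with limma-voom. Between untreated lines, 2 mitochondrial members were lower with library totals and DESeq2 and 4 with limma-voom and limma on TPM, and 5 nuclear members were higher with limma on log2(TPM + 1), with or without the minimum. The cause was not tested.

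With each library left out in turn, nuclear members called higher and lower ranged over 4 to 13 and 4 to 9 in KLE cells, 19 to 27 and 8 to 15 in Ishikawa cells, 6 to 14 and 3 to 17 for the difference in response, and 6 to 15 and 11 to 18 between untreated lines. Mitochondrial members called lower ranged over 3 to 8, 1 to 4, 6 to 8 and 1 to 4 in the same order, and those called higher stayed at 3 in Ishikawa cells and 0 elsewhere.

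The labels number replicates alike in all groups, but same-numbered KLE libraries did not deviate together (correlations -0.073, -0.033 and -0.092), and Ishikawa ones were at 0.063, 0.19 and 0.086. Differently numbered pairs ran from -0.0071 to 0.078 in KLE cells and from -0.16 to 0.083 in Ishikawa cells, so pairing in Ishikawa cells stays possible. There the block gave medians of 0.11 for nuclear and 0.19 for mitochondrial members, against 0.11 and 0.18 without it. With the replicate number as a block, 4 mitochondrial members were called lower and 7 nuclear ones higher in KLE cells, the KLE calls of MT-CO3, MT-ATP6, MT-ATP8 and MT-CYB being lost (edgeR adjusted p = 0.083, 0.076, 0.090 and 0.092), and so were the differences between the lines of MT-CO1 and MT-ND2 (0.056 and 0.058). The block also ended the KLE calls of COX6B1, NDUFA2, NDUFB9, UQCRQ, UQCR11 and ATP5F1D (edgeR adjusted p between 0.051 and 0.083) and the differences of COX7A2L, NDUFA10, ATP5PO and SDHAF3 (between 0.052 and 0.068). The SDHAF3 difference was also not called without Ishikawa untreated 2 (0.28, edgeR adjusted p = 0.088). Low counts limit COX6B2 and NDUFA4L2. In the main fits COX6B2 passed the count filter only through CuCl2 libraries, and NDUFA4L2 only through the untreated Ishikawa libraries. The filter so favours calls in the direction reported for both genes, also between lines.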
